A study of Mus musculus with 55 samples.

Results

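CTCF-AID cells are mouse embryonic stem (ES) cells of the E14Tg2a line (129/Ola) in which the chromatin architecture protein CTCF carries an auxin-inducible degron, a tag that lets the plant hormone auxin (indole-3-acetic acid, IAA) trigger its destruction. The comparison described here is that of 40 with 20 min after release from mitosis in CTCF-AID cells that received no IAA, with 2 libraries at 40 min and 2 at 20 min, 4 of the 55 libraries of the series. Its members were taken by their labels (cell line, absence of IAA and time point) and paired by replicate number. All cells were grown in serum and LIF. Those of the mitotic stage and of the time points were held with the CDK1 inhibitor RO-3306 (10 µM, 4 h) and then with the spindle poison nocodazole (50 ng/ml, 4 h), collected as mitotic cells by shake-off and, for the time points, released. Asynchronous cells, with 3 libraries, were not put through this arrest. Libraries of mitotic cells that had not been released, 3 in all and 2 with the replicate numbers of the 4 libraries, gave the background. The same time points in CTCF-AID cells kept in 0.5 mM IAA, and in E14Tg2a cells with a cyclin A reporter (CCNA-GFP) are given beside them. The labels number the replicates without saying what separates them, and the methods of the study call the replicates of each cell line and condition independent.

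During mitosis chromosomes are condensed, most transcription factors leave their sites and transcription by RNA polymerase II falls to a low level. As cells leave mitosis the chromosomes open, the nucleus forms again and transcription of the genome resumes. Pre-mRNA still holds its introns and is soon spliced, which makes its level a closer measure of current transcription than that of mature mRNA. The values are TPM (transcript abundance scaled to a fixed sum over all transcripts of a library) of a pre-mRNA isoform that runs over the whole gene, for 10237 genes. The study quantified these isoforms beside the mature ones and left out genes with low values. The listed values are thus a part of all transcripts, and their own sum can differ between libraries.

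The 4 libraries carried the identity of ES cells. Of the markers of ES cells, 9 were measured, and their mean level lay between the 66.1 and the 99.9 percentile of all genes. Zfp42, a marker of the pluripotent state, had 35.1 and 18.5 TPM at 20 min and 33.4 and 19.6 TPM at 40 min in replicates 1 and 2. Pou5f1, which encodes the pluripotency factor OCT4, had 11.9 and 6.30 TPM at 20 min. Of 56 markers of endoderm, mesoderm, ectoderm, fibroblasts, trophoblast and the 2-cell-like state, 20 were measured, and their summed level was 20.8 and 15.2 TPM at 20 min and 29.3 and 31.9 TPM at 40 min. The summed level of the 9 ES cell markers was 83.6 and 46.2 TPM at 20 min and 109 and 68.9 TPM at 40 min. In bulk RNA more cells of a kind and more RNA in each cell cannot be told apart, and the part of these markers in the results was not tested.

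Which genes were transcribed anew in this first interval was asked by comparing 40 with 20 min. The pre-mRNA of 5512 of 10237 genes was higher at 40 min (53.8% of those tested) and that of 164 was lower (1.6%), at an adjusted p under 0.05 in limma with the replicate as a block. Among the 20 genes with the largest rise were the histone gene Hist1h2br, the DNA damage and stress genes Gadd45b, Ddit4 and Ddit3, and the antiproliferative genes Btg2 and Btg1. Genes of 100 kb and over had a median difference of -0.03. Of 24 genes of the pluripotency network 9 were called higher, with Dppa5a (1.23) and Klf4 (1.20) in the lead, and Pou5f1 (0.37), Nanog (0.40) and Esrrb (0.17) were not called.

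The summed level of all listed genes was 23827 TPM at 20 min and 33117 TPM at 40 min in replicate 1, a ratio of 1.39. In replicate 2 it was 18396 and 27970 TPM, a ratio of 1.52. The median gene rose by 0.27 on the log2(TPM + 1) scale in replicate 1 and by 0.30 in replicate 2, with a mean of 0.29 and an SD of 0.017 between the 2 replicates. The lower and upper quartiles of genes were 0.07 and 0.56. At 40 min 80.2% of genes were higher than at 20 min in replicate 1 and 83.4% in replicate 2, and 77.6% in both. For 610 genes the difference exceeded 1 on this scale, and 609 of them were called higher. No exact permutation test of 2 against 2 libraries can go below p = 0.333, so the medians are given without a test of their own.

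**Figure D1:**
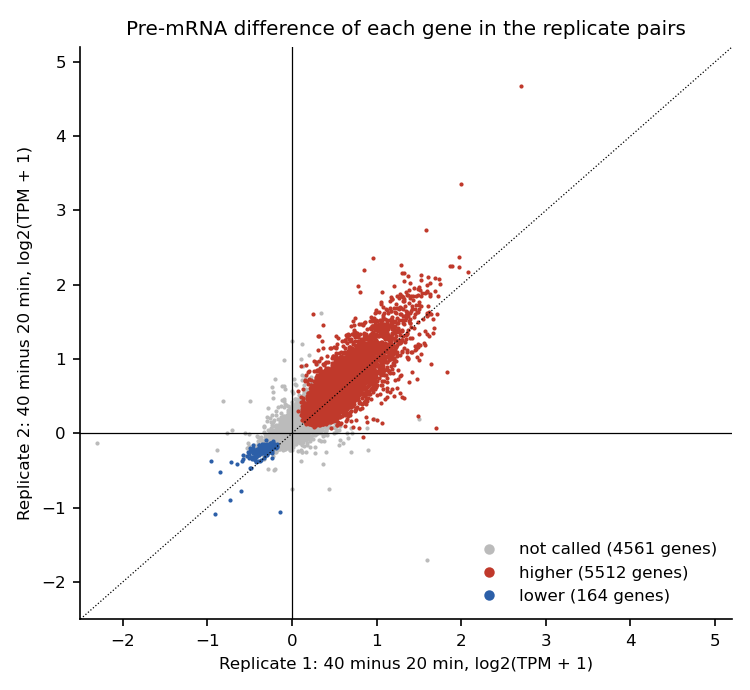
Each point is a gene, with the difference of 40 minus 20 min on the log2(TPM + 1) scale in replicate 1 on the x axis and in replicate 2 on the y axis, and with genes called higher in red, lower in blue and not called in grey. The pairs share no library, and the cloud of the 5512 genes called higher lies along the dotted line of equal differences, with Hist1h2br farthest out.

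The differences of the replicate pairs followed each other across genes (Pearson's r = 0.89, Spearman's rho = 0.90 over 10237 genes, which are not independent replicates). These values rest on the TPM as deposited, in which the summed level of all genes rises. When each library was set to the same total, the median gene differed by -0.01, 2954 genes (28.9%) were called higher and 3041 (29.7%) lower, so that the share of higher among the calls went from 97.1% to 49.3%. All 2954 were among the 5512, all 164 genes called lower remained lower, and 39 genes called higher on the deposited scale were called lower on the other. Setting the totals equal removes any rise shared by all genes, so calls in both directions follow largely from the scaling. It cannot tell whether all genes rose. A gene that is lower with the same total rose less than the sum of listed genes, or fell. Without the replicate block, 3547 genes were called higher and 16 lower. Without replicate 1 the counts were 3644 and 9, and without replicate 2 they were 3689 and 54, with 1 library left at each time point, assumed to vary like the other stages.

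Few or no genes were called before this interval. Between mitosis and 20 min, limma called 0 genes higher and 0 lower (0.0%), with 351 genes at an unadjusted p under 0.05, 338 of them higher at 20 min. The replicates did not do the same. The median gene was 0.10 above mitosis at 20 min in replicate 1 and 0.02 below it in replicate 2 (a log2 difference of -0.02). The summed level at 20 min was 1.14 times that of mitosis in replicate 1 and 0.989 times in replicate 2. Against mitosis, 6387 genes (62.4%) were higher at 40 min and 243 (2.37%) lower. With the mitotic, 20 and 40 min libraries of replicates 1 and 2 alone, 25 genes were called higher and 3 lower at 20 min than in mitosis.

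The gene with the largest rise was Hist1h2br, a gene for the core histone H2B (chr13:21833743-21837530, GRCm38, plus strand). Its level was 5.31 and 1.00 TPM in mitosis and 6.24 and 0.656 TPM at 20 min in replicates 1 and 2, and it was 46.1 and 41.3 TPM at 40 min. At 60 min it had come down to 16.6 and 17.8 TPM, and asynchronous cells held between 4.17 and 5.60 TPM. The libraries at 20 and 40 min did not overlap, and the log2 difference was 3.69 ± 0.47 (SE, adjusted p = 2.89e-05). Hist1h2bp and Hist1h2bc, also H2B genes, rose by 2.07 and 1.86. The other 2 listed genes of the Hist clusters, Hist1h2be and Hist1h2bq, were not called (log2 differences of 0.03 and 0.34), and were named after their values were seen. The H2B genes are near copies of each other, so reads may have been split between them. The study shows histone genes as mRNA, not pre-mRNA, and reports that asynchronous cells held more of it than released cells. The pre-mRNA of Hist1h2br at 40 min went the other way, and the measures are not alike.

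Gadd45b, whose product takes part in the response to DNA damage and growth signals, lies at chr10:80930073-80932204 on the plus strand. It was at 0.457 and 1.03 TPM in mitosis, 1.09 and 1.05 TPM at 20 min and 7.24 and 9.64 TPM at 40 min. Both libraries at 40 min stood above both at 20 min, with a log2 difference of 2.18 ± 0.21 (SE, adjusted p = 7.06e-06). Ddit4, an inhibitor of mTOR signalling that is induced by stress, went from 1.94 and 2.04 TPM at 20 min to 11.4 and 12.6 TPM at 40 min (2.12 ± 0.19, adjusted p = 4.225e-06). Ddit3, the stress-induced transcription factor CHOP, went from 3.73 and 2.55 to 16.2 and 15.9 TPM (2.06 ± 0.20, adjusted p = 5.62e-06). Between mitosis and 20 min none of these 3 genes was called (adjusted p = 0.993 in limma for each).

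Btg2, an antiproliferative gene and a target of p53 (chr1:134075170-134079120, minus strand), had a high level before the rise, with 7.52 and 6.52 TPM in mitosis and 8.93 and 7.03 TPM at 20 min. It reached 31.0 and 33.2 TPM at 40 min (log2 difference 1.89 ± 0.26, adjusted p = 5.34e-05), against 1.51 to 3.45 TPM in asynchronous cells. Btg1, its paralog, went from 2.55 and 1.29 to 9.21 and 8.98 TPM (1.82 ± 0.17, adjusted p = 4.73e-06). Pmaip1, which encodes the proapoptotic protein NOXA, went from 2.10 and 1.27 to 8.62 and 8.20 TPM (1.83 ± 0.17, adjusted p = 4.37e-06). Hes1, the transcriptional repressor downstream of Notch, went from 1.68 and 1.15 to 7.33 and 6.87 TPM (1.75 ± 0.19, adjusted p = 1.09e-05). Fzd5, a receptor for Wnt, rose by 1.88 and Dvl2, which relays the Wnt signal, by 1.78.

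Mir20a was second in rank, and its case is less plain. This microRNA gene is a hairpin of 107 bases (chr14:115044157-115044263) inside its host gene Mir17hg on the same strand. It was listed at 2.68 and 0 TPM at 20 min and at 13.7 and 9.20 TPM at 40 min, with a log2 difference of 2.68 ± 0.39 (SE, adjusted p = 8.29e-05). The host went from 14.3 and 10.2 to 16.7 and 13.4 TPM and was not called. The mature product of the 5′ arm, from RefSeq (GRCm38.p6), is given with its seed, bases 2 to 8, in capitals:

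mmu-miR-20a-5p: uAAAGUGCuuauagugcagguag

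The 20 genes with the largest rise were each higher at 40 min than at 20 min without overlap (59.5% of all genes were), and rose by 1.75 to 3.69. Of the 19 with a length in the annotation, 18 spanned under 10 kb and the longest, Dvl2, 11.7 kb. In 19 of the 20 both libraries at 40 min stood above the asynchronous libraries of replicates 1 and 2. Their level at 40 min was the highest of all stages from mitosis to 120 min in 14 of 20 genes in replicate 1 and 13 of 20 in replicate 2, where 6.23% and 6.58% of all genes were. The choice of these genes used the values at 40 min, so these counts only describe them. All 20 were also called higher when libraries were set to the same total.

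**Figure D2:**
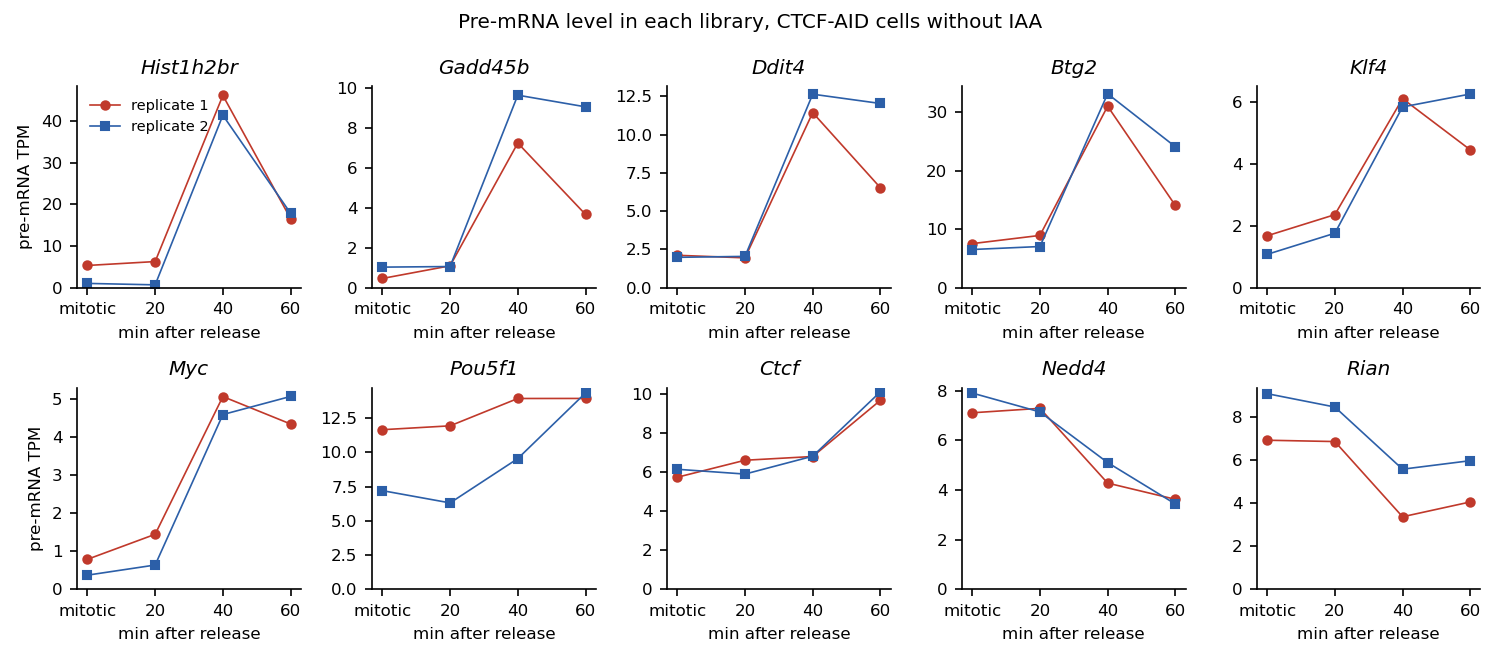
Pre-mRNA level (TPM, y axis from 0) of 10 genes in each library of mitotic cells and at 20, 40 and 60 min after release, with replicate 1 as red circles and replicate 2 as blue squares. Hist1h2br, Gadd45b, Ddit4 and Btg2 were highest at 40 min of the stages drawn, Pou5f1 and Ctcf were not called between 20 and 40 min, and Nedd4 and Rian were lower at 40 than at 20 min.

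The sequence at the start of the leading genes is shown for 4 of them, with 250 bases before and 50 after the start of transcription, 5′ to 3′ on the strand of the gene, from RefSeq (GRCm38.p6). Capitals mark the CCAAT box, read on either strand (CCAAT or ATTGG), and the E-box CACGTG. The windows lie at chr10:80929841-80930140 (Gadd45b, plus strand), chr10:59951721-59952020 (Ddit4, minus), chr1:134079106-134079405 (Btg2, minus) and chr17:26939489-26939788 (Cuta, minus, which rose by 1.79).

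Gadd45b: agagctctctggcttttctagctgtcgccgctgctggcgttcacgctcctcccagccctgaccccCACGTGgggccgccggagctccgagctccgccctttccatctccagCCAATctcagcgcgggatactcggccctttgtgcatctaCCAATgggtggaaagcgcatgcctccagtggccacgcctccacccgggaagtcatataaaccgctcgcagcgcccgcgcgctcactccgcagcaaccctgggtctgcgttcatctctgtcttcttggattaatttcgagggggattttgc
Ddit4: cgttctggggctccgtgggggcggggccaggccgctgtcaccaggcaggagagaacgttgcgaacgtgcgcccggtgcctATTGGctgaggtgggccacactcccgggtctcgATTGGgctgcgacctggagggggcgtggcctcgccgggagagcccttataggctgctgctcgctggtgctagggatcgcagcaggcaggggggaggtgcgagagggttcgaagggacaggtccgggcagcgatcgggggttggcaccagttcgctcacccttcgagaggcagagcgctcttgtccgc
Btg2: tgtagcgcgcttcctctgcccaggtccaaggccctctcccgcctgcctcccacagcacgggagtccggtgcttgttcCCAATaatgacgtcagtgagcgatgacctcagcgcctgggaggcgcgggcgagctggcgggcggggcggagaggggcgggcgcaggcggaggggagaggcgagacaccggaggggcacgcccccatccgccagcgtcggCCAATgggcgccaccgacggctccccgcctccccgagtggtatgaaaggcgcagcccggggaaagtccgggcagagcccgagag
Cuta: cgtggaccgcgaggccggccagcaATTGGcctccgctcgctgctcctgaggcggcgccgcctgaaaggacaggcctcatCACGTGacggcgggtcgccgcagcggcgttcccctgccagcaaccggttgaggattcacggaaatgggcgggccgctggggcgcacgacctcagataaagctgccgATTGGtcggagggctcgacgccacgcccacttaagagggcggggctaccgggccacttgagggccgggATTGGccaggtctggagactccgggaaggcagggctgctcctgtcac

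Each of the 4 windows held a CCAAT box, and those of Gadd45b and Cuta an E-box, and these 4 were picked for display after their motifs were seen. Of the 20 leading genes 15 had a window, too few for a share of the set, and not every one of the 15 held a CCAAT box. A window was found for 8255 of 10237 genes (80.6%) and for 4474 of the 5512 called higher (81.2%). CCAAT, on either strand, was in 44.2% of the windows of genes called higher and in 40.0% of all windows. GGGCGG, the GC box, was in 71.0% and 68.1%, CACGTG in 13.0% and 11.2%, TATAAA in 6.30% and 6.14%, CCGGAAGT, an ETS site, in 10.3% and 9.36% and TGACGTCA, the cAMP response element, in 4.29% and 3.65%. The NRF1 motif (2.46% and 2.30%), ATGGCGGC (5.61% and 5.75%), ATTTGCAT (1.39% and 1.38%) and the CArG box (1.32% and 1.26%) had close shares in both. All motifs were read on both strands, a CArG box can hold CCAAT within it, a match is a description of letters and no test was made. For the genes called lower no share is given, since 78.7% of them had a window, under the minimum of 80% that such a comparison was held to.

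The difference went down with gene length. Genes under 5 kb rose by a median of 0.70 on the log2(TPM + 1) scale, and 872 of 1106 (78.8%) were called higher. The median then went down with each class of length, to 0.56 at 5 to 10 kb (1167 of 1433 called higher), 0.41 at 10 to 20 kb (1509 of 2170), 0.25 at 20 to 50 kb (1536 of 2991) and 0.08 at 50 to 100 kb (344 of 1462). At 100 kb and over it was -0.03, with 73 of 1047 genes called higher (6.97%) and 56 lower (5.35%). The class medians had the same order in both replicates, from 0.67 to -0.03 in replicate 1 and from 0.73 to -0.04 in replicate 2. Across 10209 genes with a length, length and difference had a Spearman's rho of -0.61 in each replicate, and length and mean level one of -0.09.

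The gradient was present at each level of expression. Among genes under 5 kb the median difference was 0.49 for those with a mean under 1 TPM, 0.83 at 1 to 3 TPM and 0.86 at 3 TPM and over. Among genes of 100 kb and over the same medians were -0.01, -0.06 and -0.12. With libraries set to the same total the order was kept but the zero was moved, with medians from 0.45 under 5 kb through -0.07 at 20 to 50 kb to -0.32 at 100 kb and over. On that scale the classes from 20 kb up lay below 0. The size of the medians also hung on the pseudocount. With 0.1 in place of 1 they ran from 1.23 under 5 kb through 0.40 at 20 to 50 kb to -0.06 at 100 kb and over.

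At 20 min the medians of the classes against mitosis lay between 0.09 and 0.11 in replicate 1, with no order by length. In replicate 2 they went down with length over a narrow range, from 0.01 under 5 kb to -0.04 at 100 kb and over. At 40 min they ran from 0.78 under 5 kb to 0.09 at 100 kb and over in replicate 1, and from 0.72 to -0.08 in replicate 2. At 60 min they ran from 0.76 to 0.29 and from 0.94 to 0.13. All these medians share the mitotic libraries of their replicate.

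**Figure D3:**
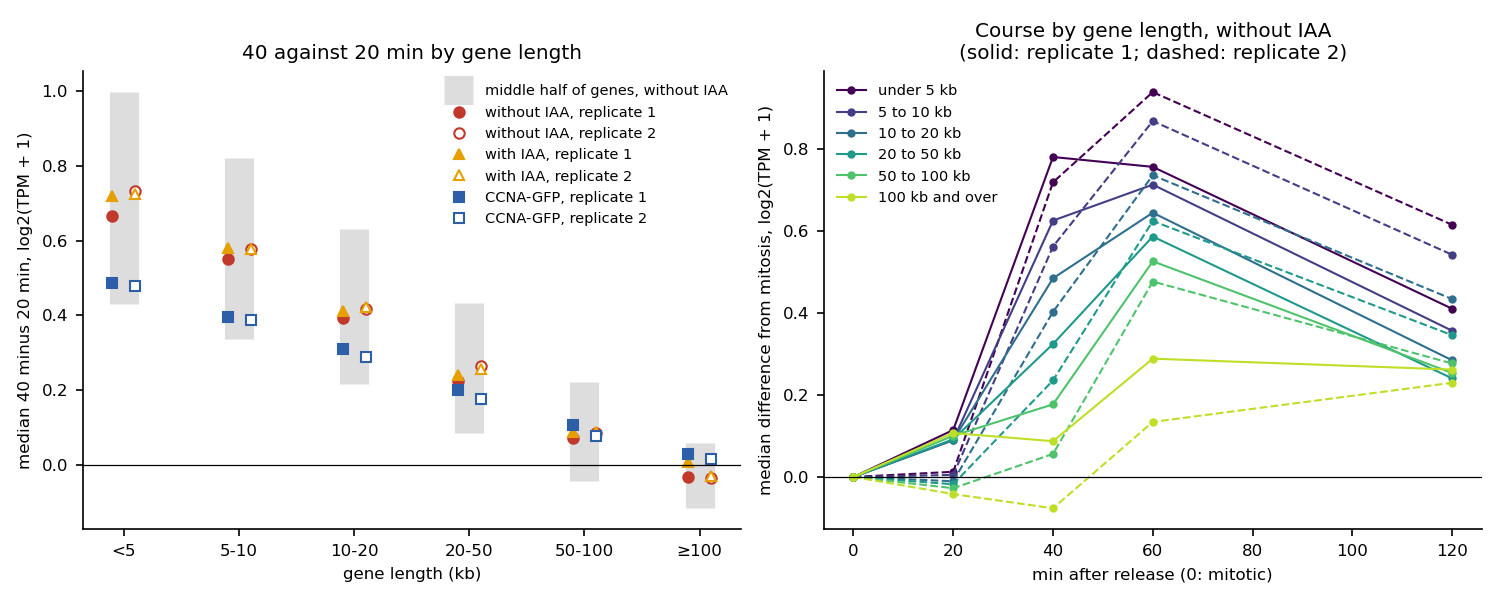
Left, median difference of 40 minus 20 min on the log2(TPM + 1) scale (y axis) in 6 classes of gene length (x axis, kb) for each replicate of CTCF-AID cells without IAA (red), with IAA (orange) and of CCNA-GFP cells (blue), with grey bars from the lower to the upper quartile of genes without IAA; the median falls from class to class, from 0.70 under 5 kb to -0.03 at 100 kb and over without IAA. Right, median difference from mitosis by minutes after release for each class, solid in replicate 1 and dashed in replicate 2; the classes span a narrower range at 20 min than at 40 min.

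The 164 genes called lower were long, with a median length of 77.1 kb against 14.1 kb for genes called higher and 22.5 kb for all, and 144 of them (87.8%) spanned 20 kb or more, as did 53.9% of all genes. Rian, a long noncoding RNA of the imprinted Dlk1-Dio3 region (chr12:109603940-109661716), went from 6.85 and 8.46 TPM at 20 min to 3.36 and 5.57 TPM at 40 min (log2 difference -0.69 ± 0.16, adjusted p = 0.00239). Mirg, a microRNA host of the same region, and Mir496a within it were lower by -0.55 and -0.48, and overlap on the same strand. Nedd4, a ubiquitin ligase gene of 87.5 kb, went from 7.29 and 7.15 to 4.28 and 5.10 TPM (-0.53 ± 0.12, adjusted p = 0.00215). Ncor1, a nuclear receptor corepressor gene of 142 kb, went from 8.62 and 7.15 to 5.37 and 5.28 TPM (-0.49 ± 0.13, adjusted p = 0.00538).

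In Nedd4 and Ncor1 both libraries at 40 min stood below both at 20 min and below both mitotic libraries of the same replicates. Not every falling gene was long. Rps10, a ribosomal protein gene of 6.25 kb, went from 11.4 and 9.09 to 7.90 and 6.33 TPM (-0.47 ± 0.13, adjusted p = 0.00805), and 5730409E04Rik, of 4.55 kb, from 3.06 and 1.64 to 1.09 and 1.03 TPM (-0.67 ± 0.19, adjusted p = 0.00943). Rps10 overlaps the gene RPS10-NUDT3 on the same strand. With IAA Rps10 was not called (-0.17, adjusted p = 0.38 in limma), and 5730409E04Rik was (-0.59, adjusted p = 0.028 in limma). All 10 genes with the largest fall kept their direction but lost the call without replicate 1, and Rps10 and Tns3 also did without replicate 2. Without the replicate block 6 of the 10 lost it.

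Among 28 lists of genes, the immediate early and primary response genes had the highest median after the 5 histone genes (1.86, of which 3 were called). Of 28 genes on this list 17 were measured, and all 17 were called higher, where 53.8% of all genes were. Their median log2 difference was 1.34 (1.07 and 1.60 in replicates 1 and 2) against 0.29 for all genes. The study kept genes by their level in asynchronous cells or after mitosis, so a low gene could be kept through its rise. The counts therefore only describe the measured members. With libraries set to the same total 16 were called higher. Each of the 17 lay above the median of its class of gene length, by a median of 0.78. Btg2 and Btg1 led, followed by Klf10, a zinc finger gene of the TGF-β response, which went from 2.18 and 1.20 to 7.79 and 6.87 TPM (1.65 ± 0.19, adjusted p = 1.7e-05). Myc, the growth-promoting transcription factor, went from 1.44 and 0.633 to 5.06 and 4.59 TPM (1.54 ± 0.18, adjusted p = 1.7e-05). Of the 17 genes 10 in replicate 1 and 9 in replicate 2 were at their highest at 40 min among the stages from mitosis to 120 min, 7 stages in replicate 1 and 5 in replicate 2, where 6.23% and 6.58% of all genes were.

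Targets of p53, the tumour suppressor that responds to DNA damage and to prolonged mitosis, rose likewise. Of 22 genes on the list 18 were measured, and all 18 were called higher, with a median of 1.02. With libraries set to the same total 14 were called higher. Under the same filter on level, these counts only describe the measured members. They too lay above their length class in 18 of 18, by a median of 0.57. Ccng1, which encodes cyclin G1, went from 13.7 and 10.6 to 36.1 and 33.5 TPM (1.46 ± 0.18, adjusted p = 2.95e-05), and Bbc3, the proapoptotic PUMA, from 2.53 and 1.03 to 7.48 and 6.18 TPM (1.54 ± 0.23, adjusted p = 8.71e-05). In the integrated stress response 10 of 15 were called higher (median 0.57, and 0.24 with the same total, 7 higher and 1 lower), led by Ddit4, Ddit3 and Ppp1r15b. Among heat shock and chaperone genes 18 of 26 were called higher (69.2%, against 53.8% of all genes, with a median of 0.41), and with the same total 8 were higher and 7 lower (-0.03). They were led by Hspb1 (1.47), Dnajb1 (1.35) and Hspa5 (1.29).

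Of the genes of the G1/S transition and of DNA replication, 24 of 31 were called higher and 1 lower, with a median of 0.81 (0.36 with the same total, 18 higher and 4 lower), and 25 of 31 lay above their length class. Ccne2, cyclin E2, went from 1.75 and 1.08 to 7.31 and 5.202 TPM (1.59 ± 0.19, adjusted p = 1.87e-05). Cdk2, the kinase that cyclin E activates, went from 2.20 and 1.34 to 5.41 and 4.32 TPM (1.09 ± 0.14, adjusted p = 2.87e-05). Cdkn1b, which encodes the inhibitor p27, rose by 1.31 and Pcna, the sliding clamp of replication, by 1.21. E2f1 rose by 0.64 and Rb1, its repressor and a gene of 142 kb, by 0.30. Rb1 was not called with libraries set to the same total, without the block or without replicate 1 or 2. The lower member was Rbl1 (-0.18), a relative of Rb1. Of mitotic regulators 19 of 30 (63.3%, against 53.8% of all genes) were called higher, with a median of 0.45, and with the same total 11 were higher and 6 lower, with a median of 0.06. They were led by Ube2c (1.30), Ccna2 (1.18) and Kif20a (1.04).

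Tubulin genes rose in 12 of 14 cases with a median of 0.74 (0.41 with the same total), led by Tuba1a, which went from 1.59 and 0.961 to 6.30 and 6.13 TPM (1.68 ± 0.18, adjusted p = 9.7e-06). In replicate 1, 9 of the 14 were at their highest at 40 min, and 7 in replicate 2, where 6.23% and 6.58% of all genes were. Genes of cholesterol synthesis rose in 17 of 19 cases (median 0.61, and 0.23 with the same total, 10 higher and 1 lower), with 18 of 19 above their length class. Insig1, which holds back sterol synthesis, went from 7.40 and 3.37 to 19.8 and 14.8 TPM (1.58 ± 0.22, adjusted p = 5.7e-05), and Idi1, an enzyme of the pathway, from 4.26 and 1.85 to 12.02 and 9.20 TPM (1.57 ± 0.22, adjusted p = 5.12e-05). Of actin genes and SRF or YAP targets 8 of 16 were called higher (50.0%, a share near the 53.8% of all genes), with a median of 0.42, and with the same total 5 were higher and 2 lower (0.07). The list was led by Tagln2 (1.39) and Actg1 (1.23).

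The genes of the transcription machinery itself were called higher in 26 of 34 cases (median 0.56, and 0.22 with the same total, 18 higher and 7 lower), led by Gtf2f1, a subunit of TFIIF, and by Taf7 (1.32) of TFIID. For pause release and elongation 13 of 21 were called higher (61.9%, with a median of 0.37), and with the same total 6 were higher and 7 lower (-0.02). They were led by Mepce (1.40), Brd2 (1.26) and Supt4a (1.23). Of splicing factors 19 of 27 were called higher (70.4%, against 53.8% of all genes, with a median of 0.51), and with the same total 7 were higher and 7 lower (0.02). They were led by Srsf2, which went from 24.3 and 11.4 to 56.3 and 42.5 TPM (1.498 ± 0.23, adjusted p = 0.000127), by Srsf5 (1.47) and by Hnrnph1 (1.12).

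Ribosomal protein genes are short, with a median of 3.40 kb, and yet 18 of 76 lay above the median of their length class. Of the 76, 45 were called higher and 2 lower (Rps10 and Rpl24, at -0.47 and -0.31), with a median of 0.38, and 12 higher and 25 lower with the same total. Rps12 (1.57), Rps28 (1.31) and Rps27 (1.19) rose most, though Rps27 was not called without replicate 1 (1.22). Of ribosome biogenesis genes 13 of 31 were called higher (41.9%, against 53.8% of all genes, with a median of 0.27), and with the same total 4 were higher and 14 lower (-0.15). Nhp2 had the largest rise of the list (0.91). Of mitochondrial ribosomal protein genes 47 of 74 (63.5%) were called higher and Mrpl1 lower (-0.27), with a median of 0.49, and with the same total 25 were higher and 20 lower, with a median of 0.11. Genes of oxidative phosphorylation were called higher in 58 of 80 cases (72.5%) with a median of 0.52, and with the same total 34 were higher and 19 lower (0.17). Of these 80 genes 31 lay above the median of their length class, with a median distance of -0.04 over the list, and so did 26 of the 74 mitochondrial ribosomal protein genes. Proteasome genes were called higher in 27 of 35 cases (77.1%) with a median of 0.43, and with the same total 10 were higher and 10 lower (0.05). Genes of glycolysis were called higher in 10 of 15 cases (66.7%) with a median of 0.50, and with the same total 3 were higher and 3 lower (0.05). Of aminoacyl-tRNA synthetase genes 10 of 20 were called higher (50.0%, with a median of 0.30, and with the same total 4 higher and 8 lower, -0.11), with Eprs (-0.31) and Farsb (-0.30) lower. Of the Zfp zinc finger genes 139 of 262 were called higher (53.1%, with a median of 0.26, and with the same total 63 higher and 71 lower, -0.02) and Zfp445 lower (-0.33). The shares of these last 2 lists are near that of all genes. In the list of snoRNA host, microRNA and long noncoding RNA genes 14 of 30 (46.7%) were called higher and 4 lower, with a median of 0.42. With the same total 8 were higher and 7 lower (0.07). The 4 called lower on the deposited scale were Mir421 (-0.60), Rian, Mirg and Mir496a.

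**Figure D4:**
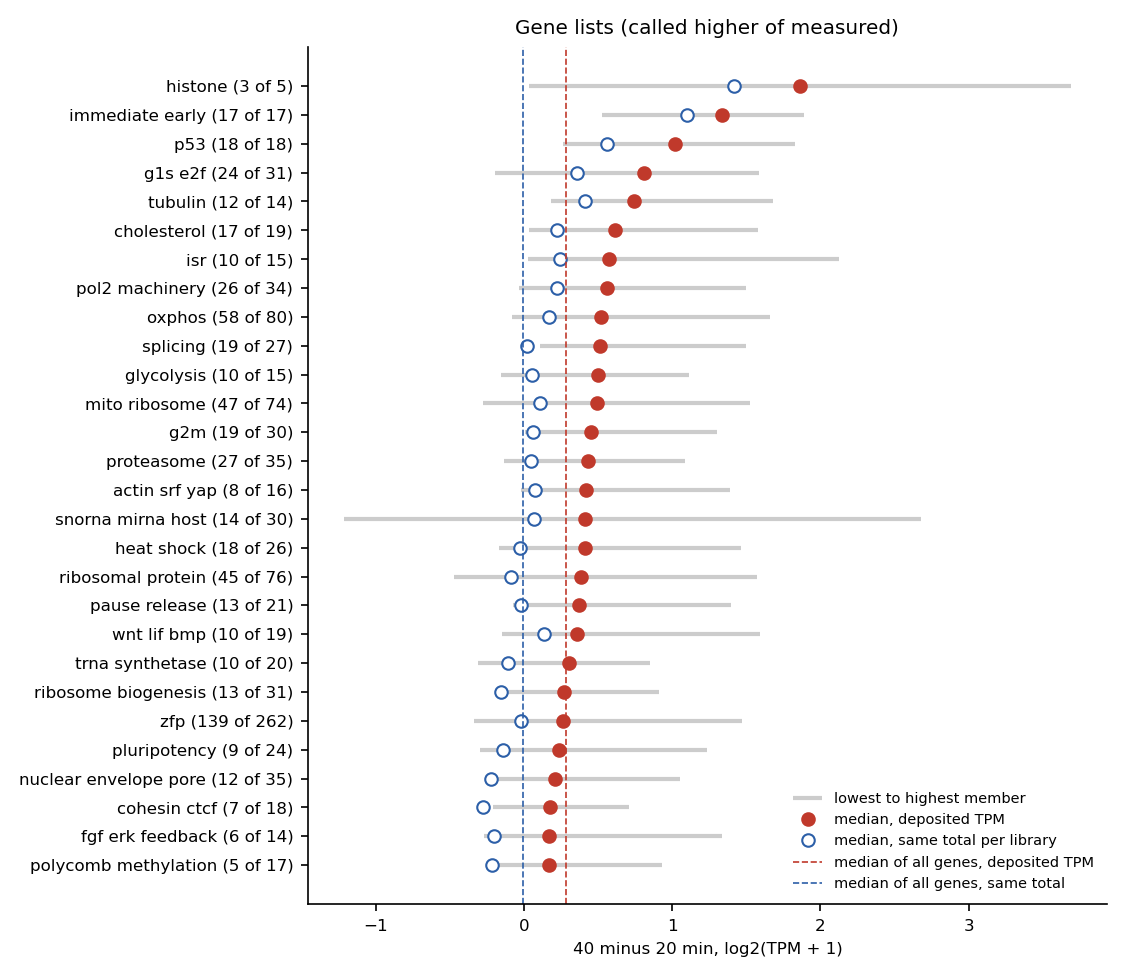
Difference of 40 minus 20 min (log2(TPM + 1), x axis) for 28 gene lists (y axis, with the number called higher of those measured), with grey lines from the lowest to the highest member, red points for the median on the deposited scale, open blue points for the median with the same total per library, and dashed lines for all genes on each scale. All 28 medians lie above 0 on the deposited scale and 17 of 28 with the same total; immediate early genes (17 of 17) and p53 targets (18 of 18) stand at the top below the 5 histone genes.

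Of 24 genes of the pluripotency network 9 were called higher (37.5%, against 53.8% of all genes) and 0 lower in limma, with a median of 0.24 against 0.29 for all genes. The order of these medians differed between replicates, with 0.21 against 0.27 in replicate 1 and 0.31 against 0.30 in replicate 2. With IAA the median of the list was 0.32 against 0.29 for all genes, and in CCNA-GFP cells 0.30 against 0.20. With the same total the median was -0.14 and 5 genes were called higher and 5 lower. Of the 24 genes 8 lay above the median of their length class, with a median distance of -0.07 over the list. No test compared the list with other genes. Pou5f1 was at 11.9 and 6.30 TPM at 20 min and 13.9 and 9.55 TPM at 40 min, and the levels overlapped between the time points (0.37 ± 0.20, adjusted p = 0.125). Nanog, a homeodomain factor that holds cells in the pluripotent state, went from 6.13 and 5.27 to 7.77 and 7.85 TPM (0.40 ± 0.17, adjusted p = 0.0555) and Esrrb, an orphan nuclear receptor, from 2.84 and 1.62 to 3.16 and 2.06 TPM (0.17 ± 0.15, adjusted p = 0.36). With the same total these 3 differences were negative, at -0.12, -0.07 and -0.21. With IAA Nanog was called higher (0.42, adjusted p = 0.0457 in limma), and Pou5f1 and Esrrb were not. In CCNA-GFP cells Pou5f1 was called higher (0.41, adjusted p = 0.0480 in limma), and Nanog and Esrrb were not. The genes of the list that rose most were Dppa5a, which went from 8.95 and 3.26 to 19.5 and 10.4 TPM (1.23 ± 0.20, adjusted p = 0.000159), Klf4, which went from 2.36 and 1.76 to 6.11 and 5.84 TPM (1.20 ± 0.21, adjusted p = 0.00028), and Klf2 (0.88).

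Of the targets and feedback regulators of FGF and ERK 6 of 14 were called higher (42.9%, against 53.8% of all genes, with a median of 0.17, and with the same total 4 higher and 6 lower, -0.20), and Spred1 was lower (-0.26). Dusp6, a phosphatase that turns ERK off, went from 1.42 and 1.57 to 4.76 and 5.89 TPM (1.34 ± 0.19, adjusted p = 6.49e-05), and Dusp4 rose by 1.31. Of LIF, Wnt and BMP response genes 10 of 19 were called higher (52.6%, a share near that of all genes), with a median of 0.36, and with the same total 6 were higher and 2 lower (0.14). Id1, an inhibitor of differentiation induced by BMP, went from 0.895 and 0.773 to 3.36 and 6.04 TPM (1.60 ± 0.21, adjusted p = 3.52e-05), Id3 rose by 1.38 and Nodal by 1.08.

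Chromatin and nuclear architecture genes, whose median lengths are above 40 kb, were among the lowest lists. Set against their length class they were not low. For Ctcf, cohesin and condensin the median distance was -0.03, with 8 of 18 genes above the class. It was 0.06 for Polycomb and DNA methylation (10 of 17 above) and -0.04 for the nuclear lamina, envelope and pore (15 of 35 above). Ctcf, the gene that carries the degron, was at 5.74 and 6.15 TPM in mitosis, 6.61 and 5.90 TPM at 20 min and 6.81 and 6.82 TPM at 40 min (0.11 ± 0.12, adjusted p = 0.485), and with the same total it was lower (-0.37, adjusted p = 0.00077 in limma). In the list of Ctcf, cohesin and condensin 7 of 18 were called higher (38.9%, against 53.8% of all genes, with a median of 0.18), and with the same total 2 were higher and 11 lower (-0.28). Ncapg had the largest rise (0.71). Of Polycomb and DNA methylation genes 5 of 17 were called higher (29.4%, with a median of 0.17), and with the same total 1 was higher and 8 lower (-0.22). Ring1 had the largest rise among them (0.93). Genes of the nuclear lamina, envelope and pore were called higher in 12 of 35 cases (34.3%) and lower in 2, Nup37 (-0.22) and Nup210 (-0.21), with a median of 0.21. With the same total 6 were higher and 20 lower (-0.22), and Ran (1.05), Emd (1.02) and Nup62 (1.00) led. The lower members of the lists other than Rian, Mirg, Mir496a and Rps10 were named after their values were seen.

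CTCF-AID cells kept in IAA had the same time points. Their median gene rose by 0.28 and 0.29 in replicates 1 and 2, and 5776 genes (56.4%) were called higher and 140 (1.37%) lower. The test of the difference itself, the interaction of time and IAA in limma over 36 libraries, called 0 genes, with 67 at an unadjusted p under 0.05 and a lowest adjusted p of 0.507. The interaction had a median of 0.02, and for 95% of genes it lay between -0.17 and 0.23. Of the 5512 genes called higher without IAA 5491 (99.6%) were higher in both replicates with IAA, as were 78.7% of all genes. Of the 164 called lower 160 were lower in both, as were 11.8% of all genes.

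By class of length the medians with IAA ran from 0.72 under 5 kb in both replicates to 0.01 and -0.03 at 100 kb and over. Immediate early genes had a median of 1.30 with IAA and 1.34 without, and p53 targets 1.06 and 1.02. All 20 genes with the largest rise without IAA were also higher in both pairs with IAA, with Hist1h2br at 4.11, Ddit4 at 2.65 and Gadd45b at 2.18. Ddit4 had an interaction of 0.53 ± 0.25 (SE), at an unadjusted p = 0.0444 in limma that did not survive adjustment. Genes of other lists had interactions of the opposite sign, with Mrpl53 at -1.23 ± 0.35, Atp5k at -0.73 ± 0.30 and Zfp688 at -0.67 ± 0.24. Their unadjusted p in limma was 0.00196, 0.0244 and 0.0112, and none survived adjustment.

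In CCNA-GFP cells, whose table was normalized apart and is set beside the other without a test across them, the median gene rose by 0.21 and 0.19 from 20 to 40 min. Of 9911 genes limma called 3408 higher (34.4%) and 0 lower, with 4 lower at an unadjusted p under 0.05. Of the 5217 genes called higher in CTCF-AID cells that this table lists, 5140 (98.5%) were higher in both CCNA-GFP replicates, as were 84.1% of all genes in both tables, and of the 154 called lower 125 (81.2%) were lower in both, as were 6.56% of all. The class medians by length ran from 0.49 and 0.48 under 5 kb to 0.03 and 0.02 at 100 kb and over. Immediate early genes had a median of 1.09 and p53 targets one of 0.66. Hist1h2br differed by 2.42, Ddit4 by 1.81, Gadd45b by 1.76 and Btg2 by 1.40, and all 20 leading genes were higher in both pairs.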

How the data were processed

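The deposited values are TPM of a pre-mRNA isoform for each gene. Per the labels and the methods of the study, the authors made ribo-depleted, stranded, paired-end libraries, used STAR for alignment to mm10 and RSEM for quantification over Gencode vM12, to which they added a pre-mRNA isoform per gene, and left out genes with low values. In each library the values are whole multiples of a step of 0.01 TPM times a factor (2.18 to 2.45 in the 4 libraries) that the sources used here do not name. TPM hold no counts, so depth is unknown. No interval or floor of counts was computed.

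Differences were taken on log2(TPM + 1) with limma 3.58.1 (lmFit, eBayes with a trend) in R 4.3.3, over the 18 libraries of CTCF-AID without IAA, with stage and replicate number as terms, because the study takes fold changes within replicates. The interaction used the 36 CTCF-AID libraries. P-values were adjusted over 10237 genes (Benjamini-Hochberg, threshold 0.05). No library copied another (Spearman's rho 0.933 to 0.984 between replicates). Other steps used Python 3.11.15 with pandas 2.3.3 and numpy 2.4.6.

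Lengths and positions are from Gencode vM21 on GRCm38 (10209 symbols matched to a single gene). The stage of the asynchronous libraries, whose headers are garbled, was read from the column names of the study's own table. Named genes are the 20 largest rises and 10 largest falls among called genes that moved the same way in both pairs with a mean of at least 1 TPM, up to 3 called genes of each list with the largest difference, and genes named in any case (Ctcf, Pou5f1, Nanog, Esrrb, Klf4, Myc, Cdk2, E2f1, Rb1). The comparison and the gene lists were chosen with earlier results of these data known.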

Additional observations from a re-analysis of the deposited data

How the results depend on the processing

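The count of genes higher at 40 than at 20 min (5512) stayed within 1.5 times under the pseudocount of 0.1, the filter, the library factor, the other sets of libraries, the second threshold and without replicate 2 or 3. It was 2954 with the same total per library, 3064 with median of ratios scaling and 3547 with no replicate block. The count of lower genes (164) was 3041, 2944 and 16 under these settings and 264 with only the mitotic, 20 and 40 min libraries of replicates 1 and 2, and ran from 9 to 177 when each replicate was left out in turn (higher genes, 3644 to 5442). The counts at 20 min against mitosis (0 and 0) were 25 and 3 with that smaller set and ran from 0 to 1 and from 0 to 0 with replicates left out. The interaction with IAA gave 0 genes in every alternative run.

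The median difference (0.29) was 0.48 with a pseudocount of 0.1, 0.32 with the filter on a mean of at least 1 TPM, -0.0096 with the same total and 0.00257 with median of ratios, and 0.27 or 0.30 with a replicate left out. With the same total and with median of ratios the sign turned for Ctcf (-0.37 and -0.35), Pou5f1 (-0.12 and -0.10), Nanog (-0.0723 and -0.0535) and Esrrb (-0.21 and -0.19). Both scalings remove a rise shared by all genes. Of 118 named genes that were called, 18 lost the call without replicate 1, 10 without replicate 2, 2 without replicate 3, 13 with no replicate block, 7 with the same total and 6 with median of ratios. Nanog was called with the filter, with the smaller set of libraries and at the second threshold, and Pou5f1 with the smaller set. Deviations of libraries with the same replicate number correlated above 0.1 in 45 of 49 pairs of stages (r from -0.05 to 0.81). Among the mitotic, 20 and 40 min stages 6 of 6 did (0.53 to 0.81), so the numbers pair these stages in the data but not by any label. Stages with the same 2 replicates give an equal r in both by construction, as at 20 and 40 min (0.71). These counts therefore hold repeated values and are not of separate pairs. Depth is unknown, so the counting error of genes near 0 TPM is not known either.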

Other observations

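Promoter windows were also put into 5 groups of equal size by the difference of 40 against 20 min, a grouping chosen after the data were seen. From the lowest to the highest group the share of windows with CCAAT on either strand was 31.6%, 37.6%, 40.6%, 41.9% and 48.3%. The share with CACGTG was 8.79%, 8.95%, 11.0%, 13.3% and 13.99%, that with GGGCGG was 63.3%, 65.5%, 67.8%, 71.4% and 72.3%, and that with TGACGTCA was 2.56%, 2.86%, 3.22%, 4.39% and 5.16%. The other 6 motifs did not rise at each step. TATAAA was in 6.22%, 5.79%, 4.68%, 6.38% and 7.62% of windows, CCGGAAGT in 6.65%, 8.53%, 10.9%, 10.2% and 10.4%, ATGGCGGC in 5.37%, 5.97%, 5.71%, 5.90% and 5.82%, ATTTGCAT in 1.10%, 1.40%, 1.64%, 1.63% and 1.14%, the NRF1 motif in 1.83%, 2.25%, 2.25%, 2.17% and 3.00%, and the CArG box in 1.04%, 1.10%, 1.46%, 1.20% and 1.501%. Each group had between 1639 and 1666 genes with a window. Among genes under 10 kb, grouped in the same way, the share with CCAAT in the second to the highest group was 35.1%, 43.5%, 44.5% and 48.9%, and the lowest group had a window for too few genes (78.1%) to be compared. These shares are descriptions of letters, with no test, and the difference went down with gene length.

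Some lists had members whose level at 40 min was above that at every other stage from mitosis to 120 min. Of 76 ribosomal protein genes 20 in replicate 1 and 19 in replicate 2 were so, and of 30 mitotic regulators 4 and 8, where 6.23% and 6.58% of all genes were. Of the 31 genes of the G1/S transition and DNA replication 2 were so in each replicate, and of the 18 genes of Ctcf, cohesin and condensin 0 in either. Replicate 1 has 7 stages from mitosis on and replicate 2 has 5, so the counts of the replicates are not of the same base.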
